A study of Oryza sativa Japonica Group with 38 samples.

Results

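Long noncoding RNAs (lncRNAs) of rice seedlings kept under high light were set against those of untreated seedlings. High light seedlings (Oryza sativa japonica, 50000 lux) and untreated seedlings both grew for 2 weeks on MS medium of reduced strength, in days of 12 h at 28 °C and nights of 12 h at 22 °C. The length of the exposure is not given in the labels, and whole seedlings were used. From each came 1 poly(A)+, 1 poly(A)-, 1 nuclear and 1 small RNA library, so the comparison rests on 8 of the 38 libraries of the series. Per the labels, only the nuclear library was made from nuclear RNA, and the other kinds from whole cells. Members were chosen by label alone, as all 7231 lncRNA genes listed, read from the columns headed for high light and for control. The genes carry 3 kinds of identifier: 1873 have RAP locus identifiers (median exon length 631 nt), 1849 have EPlOSAG identifiers (271 nt) and 3509 are assembled XLOC loci (553 nt).

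An lncRNA is a transcript that is not translated into a protein. Many are capped, spliced and polyadenylated like messenger RNA, and oligo(dT) beads keep these in the poly(A)+ fraction. Transcripts without a poly(A) tail, or with a very short one, pass into the poly(A)- fraction, which also holds processed and degraded RNA. Light beyond what photosynthesis can use leads in plants to photoinhibition, to reactive oxygen species in the chloroplast and to rapid reprogramming of nuclear transcription. In plants, lncRNAs are known to act on chromatin, on alternative splicing and as precursors or decoys of small RNAs. None of the listed identifiers matched an annotated gene name in the table used here, so the loci are given by identifier, place and level, with no role.

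The values are FPKM, fragments scaled to exon length and library size, as deposited. Each FPKM value of a gene with 1 transcript was a whole number of reads once multiplied by exon length, which gives the depth. High light libraries held 50.6 M reads in poly(A)+, 87.8 in poly(A)-, 55.7 in nuclear and 46.3 in small RNA, and untreated libraries held 74.5, 80.8, 24.6 and 39.7 M in the same order of fractions. The untreated nuclear library was the shallowest of these, and 3 reads in a 500 nt locus stood for 0.108 FPKM in high light and 0.244 FPKM in untreated nuclear RNA. Ranges in parentheses after a level are exact 95% Poisson intervals of the reads, and those after a ratio are exact 95% intervals of the ratio of 2 counts. They cover counting error only. With 1 library a side there was no replicate error and no test, and the labels name no separate cultures behind the libraries. A level in whole seedlings or in their nuclei also cannot part fewer cells of a type from less RNA per cell, and markers of cell types were not analysed here, since the lists hold lncRNA loci.

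A locus was compared where it reached 1 FPKM in one of the pair of libraries, and counted as higher or lower where log2(FPKM + 1) differed by at least 1, a difference of 2-fold that is understated for low genes. In poly(A)+ RNA 3103 genes were compared, of which 197 (6.35%) were higher and 558 (18%) lower in high light. In poly(A)- RNA nearly all differences went the other way, with 409 (44.9%) of 910 genes higher and 5 (0.549%) lower. Nuclear RNA had 9 (2.04%) of 441 genes higher and 26 (5.9%) lower, and small RNA 18 (1.47%) of 1227 higher and 18 (1.47%) lower. Whole libraries were shifted: the median log2 difference was -0.19 in poly(A)+, 0.96 in poly(A)-, -0.20 in nuclear and -0.18 in small RNA. Relative to these medians, 300 (9.67%) poly(A)+ genes were higher and 400 (12.9%) lower, and in poly(A)- RNA 45 (4.95%) were higher and 13 (1.43%) lower. In nuclear RNA 20 (4.54%) were then higher and 14 (3.17%) lower, and in small RNA 29 (2.36%) and 7 (0.57%). All shares are shares of the genes compared, and the loci described below as leading ones passed both ways of counting.

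**Figure D1:**
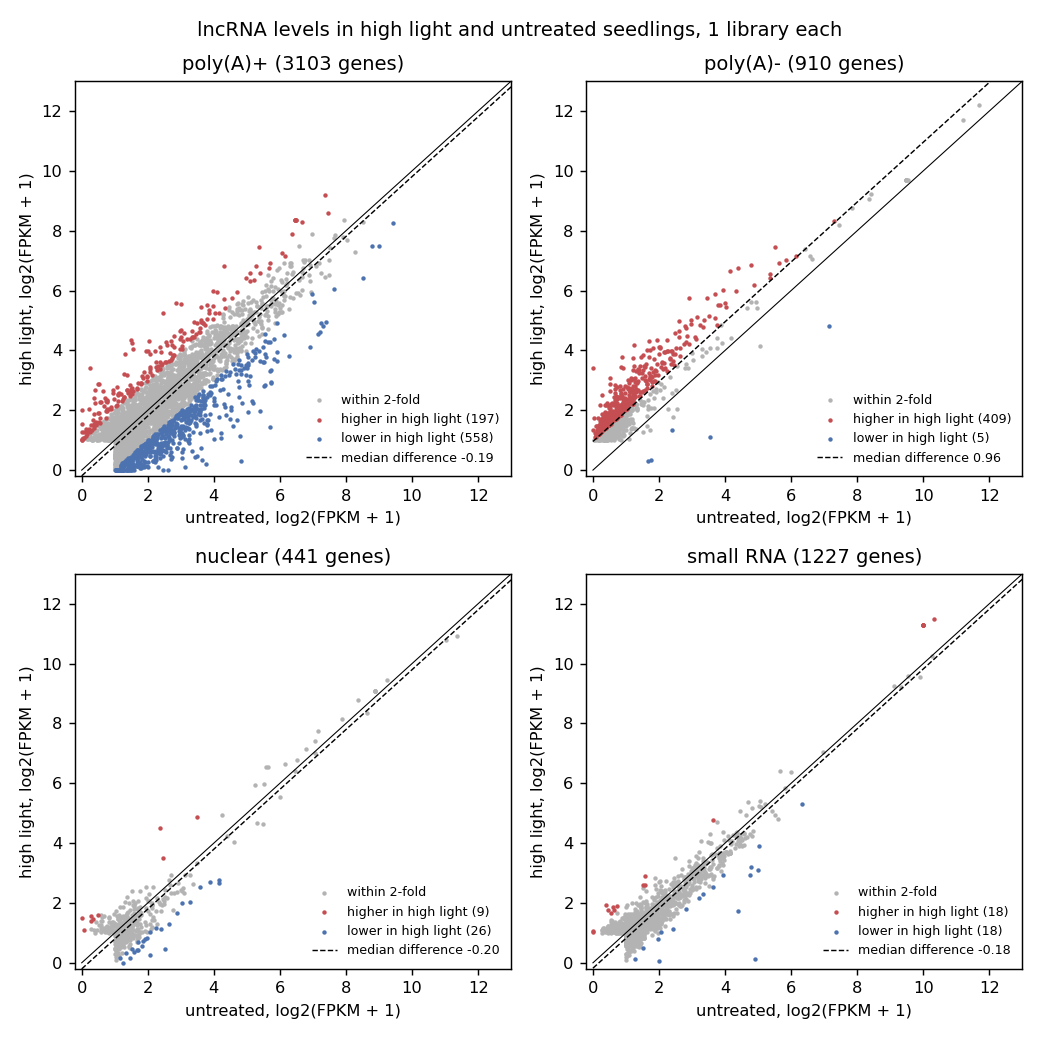
Level of each compared lncRNA gene, log2(FPKM + 1), in high light (vertical axis) and untreated seedlings (horizontal axis) for the 4 RNA fractions, 1 library each; red and blue points are 2-fold higher or lower in high light, the solid line marks equal levels and the dashed line the median difference. The poly(A)- cloud lies 0.96 above the line of equal levels, while the poly(A)+ cloud is wide on both sides of it.

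Among the loci leading in poly(A)+ RNA of high light seedlings was XLOC_033952, a 436 nt single-exon locus on chromosome 2 (18456590 to 18457025, + strand). It had 19.4 FPKM (17.6 to 21.3) in high light and 1.79 FPKM (1.36 to 2.31) in untreated seedlings, a ratio of 10.8 (8.22 to 14.5). Drought stood as high, at 19.8 FPKM, while cold had 1.28, heat 0.359 and high salt 8.79 FPKM. In the other high light fractions the locus stayed under 1 FPKM. XLOC_059947, a spliced locus on the - strand of chromosome 4 (35337076 to 35338467) with 3 listed transcripts, was the most abundant of the 12 leading loci. It had 111 FPKM in high light and 18.7 FPKM in untreated seedlings, and its poly(A)- level was 5.27 against 0.436 FPKM. No counting interval is given for it, since its values were not whole reads. Drought again stood close to high light, at 132 FPKM, with 6.28 in cold, 4.08 in heat and 14.4 in high salt. XLOC_013779 (chromosome 10, 16425984 to 16426919, + strand) had 45.9 FPKM (44 to 47.9) in high light and 7.09 FPKM (6.47 to 7.74) in untreated seedlings, with 39 FPKM in drought and 10.4 to 15.9 FPKM in the other stresses. It was one of 2 among the 12 leading loci with the highest level of all 6 seedling libraries in high light. XLOC_057392, a locus of 247 nt on the - strand of chromosome 4 (16585573 to 16585819), was the other, with 6.32 FPKM (5.0 to 7.88) in high light, 5.44 in heat and 0.435 (0.188 to 0.857) in untreated seedlings. Its neighbour XLOC_057393, within 10 kb on the same strand, also passed.

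OS01G0550850, with 5 exons on chromosome 1 (20641271 to 20643562, - strand), reached 15.3 FPKM (14.3 to 16.4) in high light, 27.9 FPKM in heat and 1.93 FPKM (1.64 to 2.26) in untreated seedlings. Cold, drought and high salt stood below the untreated library, between 0.193 and 0.618 FPKM, so of the 5 stresses high light and heat were the high ones. Untreated roots had 21.2 FPKM. XLOC_027624, with 1175 nt on chromosome 12 (24681384 to 24682558, + strand), reached 18.2 FPKM (17.1 to 19.3) in high light and 1.87 (1.60 to 2.18) in untreated seedlings, with 73.3 FPKM in high salt and 15.3 in heat. In 7 of the 12 leading loci the untreated library had the lowest level of the 6, a rank that choosing them by their difference from it favours.

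Among the other leading loci, 4 belong to the class the authors call poly(A)-. XLOC_066469 (chromosome 5, 20973829 to 20974930, - strand) had 37.1 FPKM (35.5 to 38.8) in poly(A)+ RNA of high light and 4.50 (4.04 to 4.99) in untreated seedlings. Its poly(A)- level was 290 FPKM in high light and 172 FPKM in untreated seedlings. XLOC_029543 on chromosome 12 (13392364 to 13392781, - strand) had 47 FPKM (44.2 to 50.1) versus 6.20 (5.36 to 7.14) in poly(A)+ RNA, and 535 against 324 FPKM in poly(A)- RNA. XLOC_096146 (chromosome 9, 17216512 to 17217012, - strand) had 13.7 FPKM (12.2 to 15.2) in high light and 1.47 (1.11 to 1.92) in untreated poly(A)+ RNA. XLOC_060509, which covers 3778 nt of chromosome 5 (405001 to 408778, + strand), had 19 FPKM (18.4 to 19.7) versus 3.15 (2.94 to 3.36) in poly(A)+ RNA and 115 against 26.4 FPKM in poly(A)- RNA. For these 4 loci the poly(A)+ level was higher in all 5 stresses than in untreated seedlings.

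Few genes of the poly(A)- class could be compared in poly(A)+ RNA. Of its 389 genes, 29 reached 1 FPKM there, and 17 (58.6%) of them were higher in high light and 0 lower, beside 6.35% and 18% of all genes compared. Their median log2 difference was 1.04, and 4 of the 29 lay below 0 without passing. In poly(A)- RNA 28 of these 29 genes had the higher level in high light, 19 of them by 2-fold, and 12 passed in both fractions. The poly(A)+ level was 7.52% of the poly(A)- level in the median in high light and 4.47% in untreated seedlings, and this share was larger in high light for 18 of the 29. Of the 29, 26 reached 1 FPKM in high light and 10 in untreated poly(A)+ RNA, so many were compared only through their high light level. The authors set the class on the libraries of this series, and neither count is independent of that choice. The most abundant of the 29, XLOC_048089 on chromosome 3 (11539611 to 11540373, - strand), had 386 FPKM in poly(A)+ RNA of high light and 176 FPKM in untreated seedlings, and 4720 against 3259 FPKM in poly(A)- RNA. Another listed locus, XLOC_043227, covers the same interval on the + strand, with 583 against 164 FPKM in poly(A)+ RNA. Small RNA parted the strands, with 594 FPKM in high light and 635 FPKM in untreated seedlings on the - strand and 0.566 against 0.661 FPKM on the + strand.

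The lower side of poly(A)+ RNA held larger ratios. XLOC_053058, a single-exon locus of 1112 nt from chromosome 4 (13465757 to 13466868, + strand), had 1.71 FPKM (1.38 to 2.08) in high light and 50.7 FPKM (49.2 to 52.2) in untreated seedlings, which is 29.7 times as high (24.3 to 36.7). No other stress exceeded 2.43 FPKM, and roots had 14.7. XLOC_065209 on chromosome 5 (8959536 to 8959774, - strand) had 3 reads, 0.248 FPKM (0.0512 to 0.725), in high light and 483 reads, 27.1 FPKM (24.8 to 29.7), in untreated seedlings. The untreated level was 109 times as high, with an interval of 37.2 to 532. Cold kept 8.12 and drought 5.19 FPKM, so high light was the lowest of the 6 libraries. XLOC_007872 (chromosome 1, 16716672 to 16717056, - strand) had 0.154 FPKM (0.0318 to 0.450) in high light and 12.5 (11.3 to 13.9) in untreated seedlings, and XLOC_077371 on chromosome 7 (7503520 to 7503773, + strand) had 1 read, 0.0778 FPKM, against 146 reads, 7.72 FPKM. High light was the lowest library for 4 of the 12 leading lower loci, and the untreated library was the highest for all 12. The loci were ranked by their difference between these 2 libraries, which favours such ranks. The same counts over all genes compared were not made.

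XLOC_088454 on chromosome 8 (8063739 to 8064614, - strand) stood out for its untreated poly(A)+ level. It had 0.384 FPKM (0.223 to 0.614) in high light, 0.0369 to 0.119 FPKM in the other stresses and 0.0542 FPKM in roots, against 10.3 FPKM (9.49 to 11.1) in untreated seedlings. The next locus on that strand, XLOC_088455, within the same 10 kb, had 0.354 FPKM (0.235 to 0.511) in high light and 9.84 FPKM (9.28 to 10.4) in untreated seedlings. Whether the neighbours belong to 1 transcript was not measured. Loci that passed within 10 kb of each other in the same direction made up 25 runs with 53 of the 400 lower genes and 12 runs with 27 of the 197 higher genes. The share of all genes compared with a neighbour within 10 kb was not counted. The higher runs include the 5 loci of 1811 nt described below and pairs on both strands of the same interval, such as XLOC_033070 and XLOC_037785.

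OS05G0368000, a RAP locus with 2 exons on chromosome 5 (17670727 to 17671568, + strand), was at 2.82 FPKM (2.16 to 3.62) in high light and 31.6 (29.6 to 33.6) in untreated seedlings. XLOC_017321 on chromosome 10 (22608355 to 22608700, - strand) had 2.97 FPKM (2.22 to 3.90) versus 41.1 (38.7 to 43.7), with 18.9 FPKM in cold and 0.264 in heat. The other 5 leading loci lay between 0.266 and 2.22 FPKM in high light and between 11.4 and 26.4 FPKM in untreated seedlings.

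**Figure D2:**
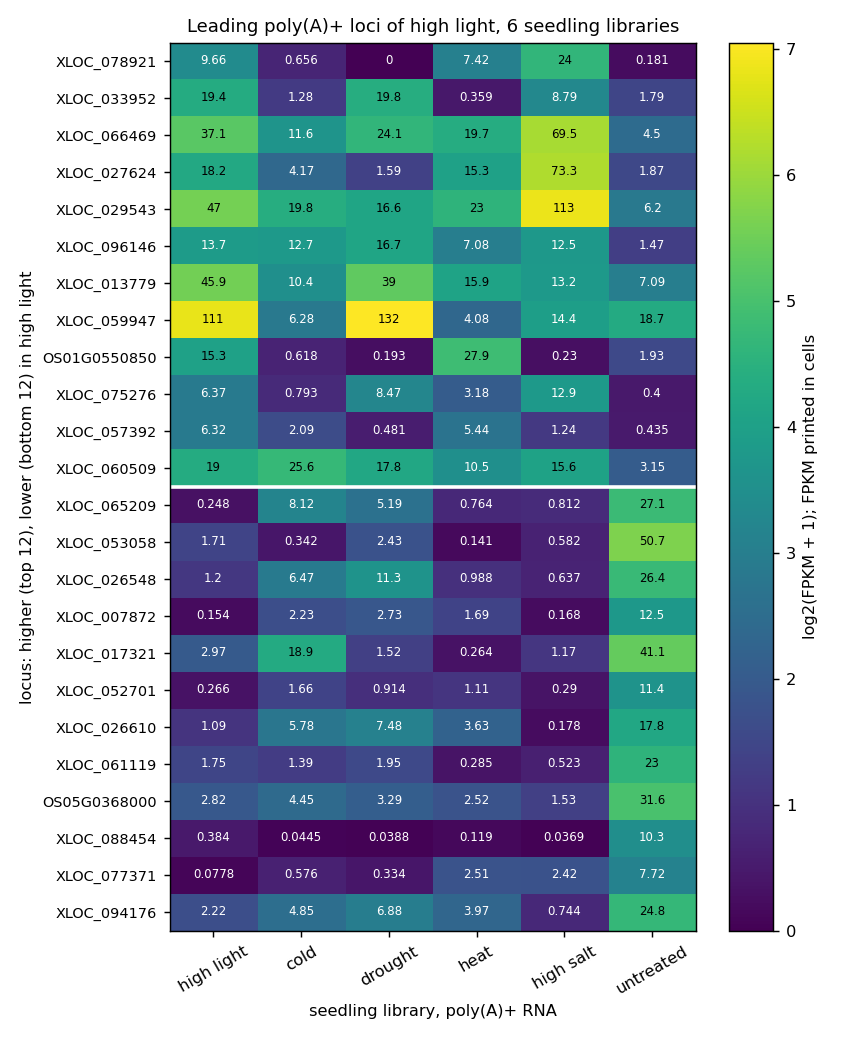
Poly(A)+ level of the 12 loci leading on the higher side (top) and the 12 leading on the lower side (bottom) in the 6 seedling conditions. Colour is log2(FPKM + 1) and the printed number is FPKM. Each column is 1 library, except drought, whose column stands for 2 libraries. In the bottom block the untreated column is the highest for all 12 loci, while in the top block high light is the highest of the 6 for 2. The loci were chosen by the difference between these 2 columns, which favours such ranks.

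The lower genes of poly(A)+ RNA were short. Their median exon length was 432.5 nt, against 550 nt for the higher genes and 574 nt for all genes compared. Below 300 nt 30.9% of genes were lower in high light, from 300 to under 600 nt 21.8%, from 600 to under 1200 nt 13.8%, and from 1200 nt upwards 6.25%, while the higher share stayed between 5.08% and 8.29%. The median log2 difference was -0.50, -0.32, -0.06 and 0.00 in the same order of lengths. With the median of the other 4 stresses in place of the untreated library, a comparison added after the data were seen, the median difference was 0.42 to 0.48 in every length class and at most 2.4% of genes were lower. The medians of the length classes thus ran between -0.50 and 0.00 against the untreated library, a wider span than against the other stresses.

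**Figure D3:**
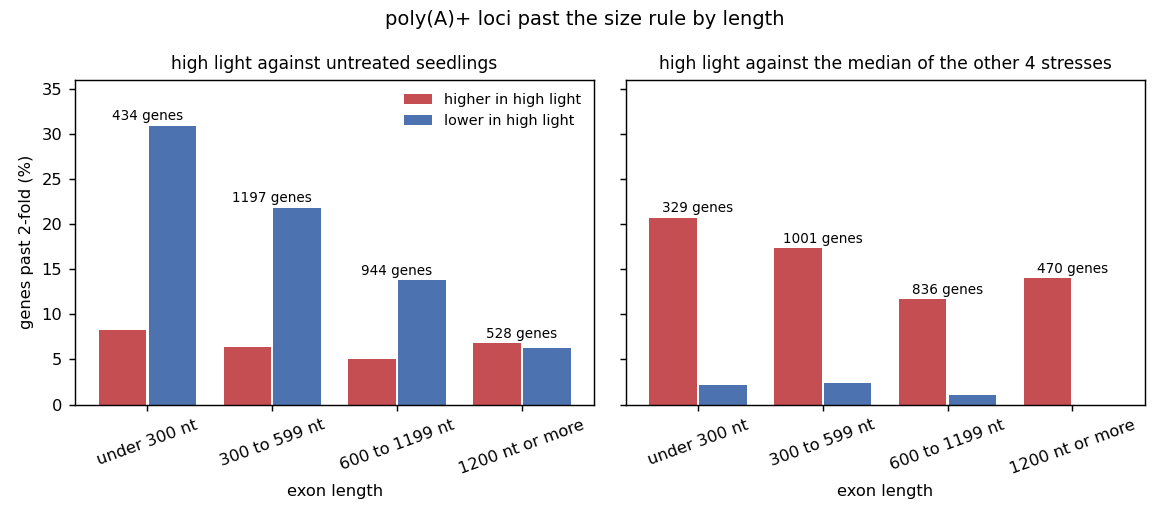
Share of poly(A)+ genes (%) at least 2-fold higher (red) or lower (blue) in high light by exon length, against untreated seedlings (left) and against the median of the other 4 stresses (right); the number of genes compared stands above each pair of bars. Against untreated seedlings the lower share is 30.9% below 300 nt and 6.25% from 1200 nt upwards, and against the other stresses it is at most 2.4%.

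By the authors' classes of location, 36.9% of the 203 genes called bimorphic were lower in poly(A)+ RNA, against 16.1% of 2765 cytosolic and 25.4% of 122 nuclear genes. Genes of the nuclear class were higher in 27.9%, beside 6.35% of all genes compared. Only 122 of its 661 listed genes were compared, and how many of them entered through their high light level alone was not counted. Its 34 higher genes include the 5 loci of 1811 nt described below and the poly(A)- class loci leading in poly(A)+ RNA, so they are not a separate result. The rule behind these classes is not given here. Spliced genes had a median log2 difference of -0.04 and single-exon genes of -0.24, and 13.7% and 19.3% of them were lower.

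Of the 3103 genes compared, the poly(A)+ libraries had 37 loci at 1 FPKM or more in untreated seedlings and listed at 0 in high light, and 6 with the reverse. The high light library was the shallower, with 50.6 M reads against 74.5 M. The 37 were short, with a median of 258 nt, 36 of them had a single exon, and 36 were XLOC loci. Over all genes compared the median was 574 nt, 76.4% had a single exon, and 2069 of 3103 were XLOC loci. XLOC_019156 on chromosome 11 (11878729 to 11879005, + strand) had 0 reads in high light, for which 3 reads would be 0.214 FPKM, and 106 reads, 5.14 FPKM (4.21 to 6.21), in untreated seedlings, at least 24-fold lower in high light. XLOC_026118 on chromosome 12 (10139214 to 10139494, + strand) had 0 against 95 reads, at least 21.5-fold lower. Both were chosen after their values were seen. Of the 37, 14 were also listed at 0 in cold, 24 in drought, 10 in heat and 26 in high salt, and 7 in all 4 of these. Over all 7231 listed genes, 2379 were at 0 in cold, 3043 in drought, 2349 in heat and 2817 in high salt. That is not a like set, since 2340 listed genes were at 0 in both high light and untreated poly(A)+ RNA. The same counts over genes at 1 FPKM in untreated seedlings were not made. On the other side XLOC_010040, described below, had 87 reads in high light and 0 in untreated seedlings.

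Few poly(A)+ loci were set apart by high light from every other seedling library. Of 3643 genes at 1 FPKM in any of the 6, high light was the highest by 2-fold for 11 and the lowest by 2-fold for 0. The untreated library was the highest for 144, heat for 137, drought for 118, high salt for 45 and cold for 44. Relative to the library medians the order turned, with drought the highest for 250, high salt for 75, heat for 63, the untreated library for 50, cold for 35 and high light for 9. All 11 were named after their values were seen. XLOC_061071, a 1767 nt locus on chromosome 5 (4567336 to 4569102, + strand), led them with 61.8 FPKM (60.2 to 63.5) in high light and 14.6 (14.0 to 15.3) in untreated seedlings, beside 11.3 in cold, 7.92 in drought, 23 in heat and 2.60 in high salt. OS01G0695150, with 9 exons on chromosome 1 (28741829 to 28744493, - strand), reached 32.2 FPKM (30.8 to 33.6) in high light and 13 (12.3 to 13.7) in untreated seedlings, and 5.15 to 12.3 FPKM in the other stresses. The other 9 were XLOC_094513, OS05G0114050, OS02G0621350, XLOC_078196, OS01G0673650, XLOC_096250, XLOC_083040, XLOC_073653 and OS11G0559366, with 2.33 to 42.8 FPKM in high light and 0.465 to 16.7 FPKM in untreated seedlings.

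Poly(A)- RNA was higher in high light almost throughout, with 98.6% of the 910 genes above a difference of 0. The high light library had 908 genes at 1 FPKM and the untreated library 295. Listed lncRNAs took 2.27% of the reads of the high light library and 1.5% of the untreated one. The untreated library was low beside cold, heat and high salt too, which had 738, 581 and 1081 genes at 1 FPKM, but not beside drought, with 259. A shift of this kind over a whole library cannot be told apart from higher levels of most transcripts in high light, since each side is 1 library. The poly(A)- minus poly(A)+ difference in log2(FPKM + 1) had a median of -1.39 over 3198 genes in high light and of -1.98 over the same genes in untreated seedlings. The median was -1.75 in heat, -1.54 in cold, -0.91 in drought and -0.34 in high salt, so high light lay among the other stresses.

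Of the loci above this shift, XLOC_080253 stood furthest from it, at 2.46 relative to the median. It spans 637 nt of chromosome 7 (2175215 to 2175851, - strand) and had 542 reads, 9.69 FPKM (8.89 to 10.5), in poly(A)- RNA of high light and 0 reads in untreated seedlings, where 3 reads would be 0.0583 FPKM, so it was at least 166-fold higher. Cold and drought were also listed at 0, heat had 1.84 and high salt 0.909 FPKM, while untreated leaves had 26.9 FPKM. In poly(A)+ RNA the locus had 0.124 against 0.253 FPKM, so its high light level was in poly(A)- RNA. XLOC_002212 on chromosome 1 (16980539 to 16981727, + strand) had 7.48 FPKM (6.96 to 8.02) versus 0.416 (0.298 to 0.567), with 139 FPKM in untreated leaves and 0 in drought. XLOC_093818 (chromosome 9, 21155907 to 21157242, + strand) had 12.6 FPKM (12.0 to 13.3) in poly(A)- RNA of high light and 0.834 (0.671 to 1.02) in untreated seedlings. Its poly(A)+ level was 14.7 FPKM in high light and 27.6 FPKM in untreated seedlings, so the fractions lay nearer each other in high light than in untreated seedlings. OS07G0574850, with 3 exons on chromosome 7 (23245050 to 23246186, - strand), had 17.1 FPKM (15.9 to 18.3) versus 1.37 (1.03 to 1.78) in poly(A)- RNA and 119 against 79.8 FPKM in poly(A)+ RNA.

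The other 4 leading poly(A)- loci were of the authors' poly(A)- class. XLOC_020424 on chromosome 11 (22518807 to 22519203, + strand) was the most abundant, with 101 FPKM (97.3 to 104) in high light and 16.7 (15.3 to 18.2) in untreated seedlings, and 95.3 FPKM in cold and 153 in high salt. XLOC_006046 on chromosome 1 (2524454 to 2525204, - strand) had 52.4 FPKM (50.7 to 54.2) versus 6.44 (5.82 to 7.12). XLOC_000374 lies on the other strand of the same interval and went the same way, with 19.5 FPKM (18.5 to 20.6) versus 3.73 (3.26 to 4.24). XLOC_037282 on chromosome 2 (6170851 to 6171226, - strand), with 9.96 against 0.790 FPKM, also had a partner on the other strand, XLOC_032562, with 3.54 against 0.165 FPKM. How reads were assigned to strands is unknown here, so such partners are not separate results. XLOC_068781 on chromosome 6 (4005982 to 4006668, + strand) had 18.8 against 2.22 FPKM. Of the whole poly(A)- class, 48 of 68 genes compared in poly(A)- RNA were higher as deposited (70.6%, beside 44.9% of all) and 15 relative to the median (22.1%, beside 4.95%).

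Nuclear RNA held few loci past the size rule, and 4 of its 6 leading higher loci had at most 2 reads in untreated nuclei. XLOC_073305 on chromosome 6 (9349538 to 9350602, - strand) was the most abundant of its leading higher loci, with 28.6 FPKM (27.2 to 29.9) in high light and 10.3 (9.12 to 11.6) in untreated seedlings. Its partner on the other strand, XLOC_069510, stood at 18 against 19.9 FPKM, so the strands differed here. XLOC_084097 on chromosome 8 (16032 to 16393, + strand) had 40 reads, 1.98 FPKM (1.42 to 2.70), against 2 reads, 0.225 FPKM (0.0272 to 0.812), a ratio of 8.83 (2.29 to 75.4). OS02G0152750 and OS12G0559250 also rested on 2 untreated reads, with 1.78 and 2.02 FPKM in high light. On the lower side, XLOC_095940 (chromosome 9, 15767177 to 15768664, - strand) had 0.374 FPKM (0.254 to 0.531) in high light and 4.70 (4.02 to 5.46) in untreated nuclei, 12.6 times as high. Its poly(A)+ level was 2.70 against 3.22 FPKM. XLOC_006164 on chromosome 1 (3251164 to 3252933, - strand) had 0.193 FPKM (0.116 to 0.301) versus 3.15 (2.64 to 3.72) in nuclear RNA, with 47.1 FPKM in nuclei of untreated leaves and 0.681 against 0.743 FPKM in poly(A)+ RNA. OS02G0572500, OS03G0285850 and OS03G0781501 had 5.39, 5.87 and 1.48 FPKM in high light nuclei and 16.8, 16.7 and 5.20 FPKM in untreated nuclei. OS02G0572500 and OS03G0285850 were lower in poly(A)+ RNA too, with 11.6 and 3.31 FPKM in high light and 58.8 and 22.1 FPKM in untreated seedlings.

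Some genes passed in the same direction in several long fractions, a name used here for all but small RNA. The genes compared in both numbered 815 for poly(A)+ and poly(A)-, 380 for poly(A)+ and nuclear, and 311 for poly(A)- and nuclear RNA. As deposited, 53 genes were higher and 9 lower in at least 2 of the 3 long fractions, and 50 of the 53 were shared by poly(A)+ and poly(A)- RNA, which is 25.4% of the 197 and 12.2% of the 409. Over all genes compared, 6.35% were higher in poly(A)+ and 44.9% in poly(A)- RNA. These shares have unlike bases, since the 197 and the 409 include genes that were not compared in the other fraction. Shares within the 815 were not counted, so whether the overlap is large or small is not shown. In all 3 fractions 0 were higher and 1 was lower. Relative to the medians 22 were higher and 11 lower in at least 2 fractions, and 1 and 2 in all 3. The fractions of a seedling sample may come from the same plants, so they are not replicates of each other. XLOC_053058 was the locus lower in all 3 as deposited: beside its poly(A)+ values given above, it had 0.266 FPKM (0.174 to 0.390) versus 2.40 (2.09 to 2.75) in poly(A)- and 0.129 (0.0558 to 0.254) versus 1.76 (1.29 to 2.33) in nuclear RNA. The untreated level was 29.7, 9.03 and 13.6 times as high in these fractions, poly(A)+ first. XLOC_047053 on chromosome 3 (4249540 to 4250108, - strand) joined it relative to the medians, with 23.7 against 148 FPKM in poly(A)+, 2.41 against 4.34 in poly(A)- and 0.460 against 2.52 in nuclear RNA.

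OS11G0171350 on chromosome 11 (3490175 to 3490738, + strand) was higher in all 3 relative to the medians. Its poly(A)+ level was 234 FPKM (227 to 241) in high light and 82.3 (79.0 to 85.6) in untreated seedlings, its poly(A)- level 12.8 (11.6 to 14.1) versus 1.73 (1.30 to 2.25), and its nuclear level 1.21 (0.788 to 1.77) versus 0.210 (0.0255 to 0.759), the last from 26 against 2 reads. The neighbour on the same strand, XLOC_018258 (3491368 to 3491623), had 174 FPKM (167 to 181) versus 39.8 (37 to 42.7) in poly(A)+ and 16.1 (14.4 to 17.8) versus 2.51 (1.88 to 3.30) in poly(A)- RNA. The pair parted under drought in poly(A)+ RNA, with 1024 FPKM for OS11G0171350 and 158 FPKM for XLOC_018258. XLOC_075276 on chromosome 6 (27094916 to 27095284, - strand) had 6.37 against 0.40 FPKM in poly(A)+ and 58.4 against 11.8 FPKM in poly(A)- RNA.

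A few loci went in opposite directions in different fractions of the same seedlings. XLOC_078921, a 223 nt single-exon locus on chromosome 7 (22421103 to 22421325, + strand), led the higher side of poly(A)+ and nuclear RNA and the lower side of poly(A)- RNA. Its poly(A)+ level was 9.66 FPKM (7.93 to 11.7) in high light and 0.181 (0.0372 to 0.528) in untreated seedlings, from 109 and 3 reads, a ratio of 53.5 (17.8 to 263). Its nuclear level was 21.5 FPKM (19 to 24.2) versus 4.19 (2.66 to 6.29), and its poly(A)- level was 1.17 FPKM (0.744 to 1.76) versus 10.5 (9.10 to 12.2). The other stresses had poly(A)+ levels of 24 FPKM in high salt, 7.42 in heat, 0.656 in cold and 0 in drought. The other strand of the same interval holds XLOC_082548, a locus of small RNA with 765 FPKM in high light and 748 FPKM in untreated seedlings, against 0.0968 and 0.226 FPKM for XLOC_078921.

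XLOC_010040 on chromosome 1 (33032568 to 33033134, - strand), of the nuclear class, followed the same order of fractions. It had 3.03 FPKM (2.43 to 3.74) in poly(A)+ RNA of high light and 0 reads in untreated seedlings, at least 42.7-fold higher. Its poly(A)- level was 27.2 FPKM (25.8 to 28.7) versus 142 (138 to 145), and in nuclear RNA 93.0 FPKM (89.6 to 96.4) versus 46.5 (43 to 50.2), a ratio of 2.00 that passed relative to the median and not as deposited. In poly(A)+ RNA high salt stood far above high light, at 79.2 FPKM, with 1.66 in heat, 0.0599 in drought and 0.0172 in cold. In nuclear RNA heat had 252 FPKM, drought 50.4, cold 29.5 and high salt 23.9. EPlOSAG00000008529, also on chromosome 1 (32751161 to 32751446, + strand), had 1.11 against 0.0469 FPKM in poly(A)+, 0.239 against 2.16 in poly(A)- and 4.33 against 1.85 in nuclear RNA. XLOC_060998 on chromosome 5 had 1.91 against 0.363 FPKM in poly(A)+ and 1.52 against 4.27 FPKM in poly(A)- RNA, while its nuclear level was 9.14 against 10.3 FPKM. These 4 loci were the ones higher in poly(A)+ and lower in poly(A)- RNA as deposited, and 5 genes were so relative to the medians.

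The reverse order, lower in poly(A)+ and higher in poly(A)- RNA, was held by 31 of the 815 genes compared in both as deposited and by 1 relative to the medians. That 1 locus, EPlOSAG00000017141 (chromosome 2, 19472445 to 19472672, + strand) had 178 FPKM (170 to 185) in high light and 512 (501 to 522) in untreated poly(A)+ RNA, 15.2 (13.5 to 17) versus 2.12 (1.51 to 2.89) in poly(A)- RNA, and 23 against 0 reads in nuclear RNA. XLOC_027369 on chromosome 12 (22856379 to 22856603, + strand), XLOC_042505 on chromosome 3 (6625053 to 6625295, + strand) and OS04G0492450 on chromosome 4 (24613960 to 24614468, - strand) were among the 31. Their poly(A)+ levels in high light were 2.55, 16.2 and 27.4 FPKM, against 19.8, 120 and 158 FPKM in untreated seedlings. Their poly(A)- levels were 9.16, 6.60 and 7.18 FPKM in high light, against 1.65, 1.53 and 2.26 FPKM in untreated seedlings.

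Near one end of chromosome 12, between 732978 and 747102, 4 neighbouring loci were higher in poly(A)- RNA of high light, where 44.9% of all genes compared were higher. Relative to the median, XLOC_028127 and XLOC_028131 passed, while OS12G0114900 at 0.55 and OS12G0115050 at 0.25 did not. This stretch was chosen after its values were seen. OS12G0114900 had 5.22 FPKM (4.67 to 5.81) in high light and 1.19 (0.926 to 1.51) in untreated seedlings, and OS12G0115050 had 93.5 (89.7 to 97.3) versus 39.9 (37.3 to 42.5). XLOC_028127 had 13.3 FPKM (12.1 to 14.5) versus 1.85 (1.41 to 2.38), and XLOC_028131 had 10.1 (9.01 to 11.2) versus 1.39 (0.995 to 1.88). For all 4, high light was the highest of the 6 poly(A)- libraries of seedlings. None of them was higher in poly(A)+ RNA: OS12G0114900 had 65.5 against 199 FPKM, OS12G0115050 90.5 against 177, XLOC_028127 169 against 182 and XLOC_028131 59.6 against 88.2 FPKM. The pair of EPlOSAG loci listed between them was at 0 in all long fractions of both seedlings.

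A strand pair on chromosome 1 (528697 to 528964) differed in direction in nuclear RNA relative to the median, and was also chosen after its values were seen. XLOC_005753 on the - strand had 91.8 FPKM (87.0 to 96.8) in high light nuclei and 49.2 (44 to 54.8) in untreated nuclei, while XLOC_000076 on the + strand had 2.14 (1.47 to 3.03) versus 6.37 (4.59 to 8.62). Poly(A)+ levels were 60.7 against 16.2 FPKM on the - strand and 1.18 against 0.401 FPKM on the + strand, where the size rule was not met. Small RNA again parted the strands, with 611 FPKM in high light and 557 FPKM in untreated seedlings for XLOC_000076, and 0.564 against 0.658 FPKM for XLOC_005753.

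Small RNA held few differences, and they fell on particular loci. EPlOSAG00000001961, which spans 238 nt of chromosome 1 (42923736 to 42923973, - strand), had 1 read, 0.0907 FPKM (0.00230 to 0.505), in high light and 272 reads, 28.8 FPKM (25.5 to 32.4), in untreated seedlings. It had 0 reads in the long fractions of both seedlings, and its partner on the other strand, EPlOSAG00000001959, had 0 small RNA reads in both. The other stresses were low as well, with 4.43 FPKM in heat and at most 0.444 in cold, drought and high salt, and leaves had 0.991 FPKM. OS09G0345350 on chromosome 9 (10792036 to 10792857, - strand) had 2.32 FPKM (1.74 to 3.04) versus 19.8 (17.9 to 21.9), and its poly(A)+ level was 1.32 against 1.01 FPKM. OS05G0105550 on chromosome 5 (301690 to 303708, - strand) had 1 read, 0.0440 FPKM, against 58 reads, 2.98 FPKM (2.26 to 3.85), in small RNA, while its poly(A)+ level was 6.64 against 6.67 FPKM.

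The other 3 leading lower loci of small RNA were the first listed locus of chromosome 2 and the last listed loci of chromosomes 2 and 7. XLOC_036369 (chromosome 2, 55 to 329, - strand) had 8.16 FPKM (6.67 to 9.89) in high light and 26.7 (23.7 to 29.9) in untreated seedlings. XLOC_036368 (chromosome 2, 35935958 to 35936250, + strand) had 7.51 (6.13 to 9.12) versus 30.9 (27.8 to 34.3), and XLOC_079937 (chromosome 7, 29696921 to 29697617, + strand) had 6.63 (5.77 to 7.58) versus 25.8 (23.9 to 27.7). Cold and drought were as low as high light or lower, between 3.94 and 7.33 FPKM, and heat and high salt stood between 19.1 and 25.1 FPKM, near the untreated library. The 3 loci had 0 poly(A)+ reads in high light and in each of the other 4 stresses, against 21, 34 and 88 reads in untreated seedlings for XLOC_036369, XLOC_036368 and XLOC_079937. For XLOC_079937 the poly(A)+ level was at least 19.9-fold lower in high light. The loci may share reads, which was not measured, so they are not taken as 3 separate results.

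**Figure D4:**
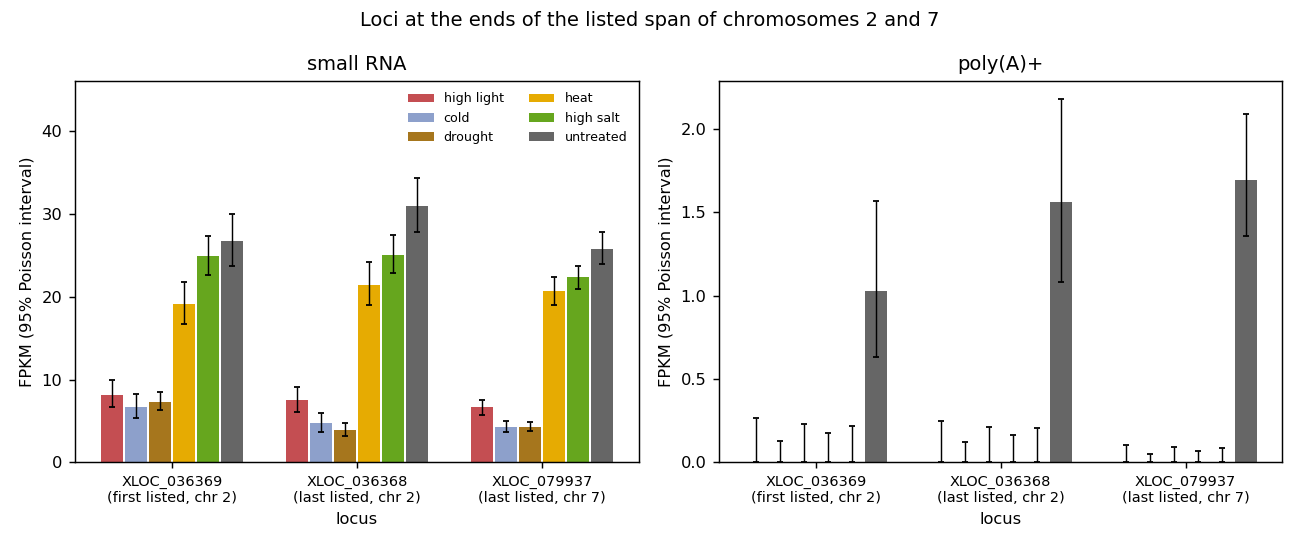
Level (FPKM) of the 3 loci at the ends of the listed span of chromosomes 2 and 7 in small RNA (left) and poly(A)+ RNA (right) of the 6 seedling conditions. Bars are single libraries, except drought in poly(A)+ RNA, whose column stands for 2 libraries. Error bars are exact 95% Poisson intervals of the reads. In small RNA high light has 6.63 to 8.16 FPKM and untreated seedlings 25.8 to 30.9 FPKM, and in poly(A)+ RNA only the untreated library has reads.

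On the higher side of small RNA, 5 EPlOSAG loci of 1811 nt on chromosome 9 (EPlOSAG00000008517 to EPlOSAG00000008521, between 3626 and 37148, + strand) shared 1 value, 2492 FPKM in high light and 1009 FPKM in untreated seedlings. They are 1 result, since their values were identical, yet they count as 5 of the 18 higher small RNA genes and 5 of the 197 higher poly(A)+ genes. Among the named parts of this series, the tandem loci of 1811 nt are called copies of ribosomal RNA. Whether their reads are ribosomal RNA left after depletion was not tested. Cold had 4648 FPKM, drought 1894, heat 1326 and high salt 1051 FPKM. Poly(A)+ levels were not identical but close: EPlOSAG00000008521 had 328 FPKM in high light, EPlOSAG00000008519 had 326 against 87.7 FPKM, and EPlOSAG00000008517 had 325 against 86.7 FPKM. EPlOSAG00000008521, EPlOSAG00000008519 and EPlOSAG00000008517 held the most reads of any listed locus in the high light poly(A)+ library. EPlOSAG00000008516 was the locus with the most small RNA reads, at 2846 against 1284 FPKM, and had 309 against 100 FPKM in poly(A)+, 835 against 736 in poly(A)- and 702 against 604 in nuclear RNA. These 6 loci of 1811 nt made up most of the EPlOSAG signal, and a value that 5 of them share is summed 5 times in the shares that follow. Together they took 85.3% of the listed small RNA reads in high light and 68.8% in untreated seedlings, and 13.1% against 3.87% of the listed poly(A)+ reads. All other EPlOSAG loci held 43657 against 44145 small RNA reads and 4813 against 12042 poly(A)+ reads. Of these poly(A)+ reads, 2048 in high light and 8687 in untreated seedlings were of 1 locus, EPlOSAG00000017141. The counts are not scaled to depth, and the poly(A)+ libraries held 50.6 M and 74.5 M reads. They therefore show no general fall of these loci.

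The remaining leading higher loci of small RNA were short EPlOSAG loci with 0 reads in the long fractions of both seedlings. EPlOSAG00000044424 (chromosome 4, 14777492 to 14777730, - strand) had 6.5 FPKM (5.09 to 8.19) in high light and 2.00 (1.21 to 3.13) in untreated seedlings. EPlOSAG00000045096 on chromosome 6 (16223304 to 16223545, - strand) had 2.85 FPKM (1.95 to 4.03) versus 0.312 (0.0644 to 0.913), from 32 and 3 reads, a ratio of 9.13 (2.86 to 46.6), and no other stress reached 0.5 FPKM. EPlOSAG00000045411 on chromosome 7 (10512143 to 10512417, - strand) had 31 against 4 reads, and EPlOSAG00000045552 on the other strand had 14 against 0 reads.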

How the data were processed

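FPKM values were deposited by the authors, scaled by exon length and library size, in a list of annotated lncRNAs and a list of assembled loci. Per the file headers each list has 36 value columns. The 4 columns per list whose headings are in doubt were not used. The small RNA column headed Leaf was matched to the library titled Japanica_Seedling_sRNA, so its heading and title name different material. It is called leaves here after the heading. Per the submitters' processing notes TopHat2 and DESeq2 were among the tools, and IRGSP-1.0 was the build; roles and versions are missing there. The sources used here do not say how reads were counted, also those matching several loci or either strand, or how the classes were set. Per the labels' protocols, RNA was extracted with Trizol and depleted of ribosomal RNA, oligo(dT) beads parted the poly(A) fractions, and libraries were strand-specific by dUTP.

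Whole reads were recovered from FPKM times exon length: 100% of 86228 values of single-exon genes, up to 200 reads each and within 0.05 reads, in the 31 columns checked. Exon lengths of end minus start gave whole reads for 100% of 15859 values of over 50 reads, against 12.3% with 1 nt more per exon, so the deposited starts were read as counting from 0, and coordinates are printed counting from 1 on IRGSP-1.0. The 78 genes with several transcripts gave whole reads in 29.3% of values. The untreated nuclear column held 0 odd values of 3092 at a smaller step, so its depth is taken as 24.6 M reads. The coverage of the intervals and the floors of 3 reads was not tested.

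Leading loci passed 2-fold on log2(FPKM + 1) as deposited and relative to the median, had at least 20 reads in the higher library and were ranked by the difference: 12 per direction for poly(A)+, 8 for poly(A)-, 6 for nuclear and 6 for small RNA. Named too were up to 12 loci shared by long fractions, up to 6 opposite ones and the 3 with most reads. Neighbours were loci within 10 kb. Members, lists and rules were chosen with earlier results of these data known. No test was run, as each group is 1 library. Python 3.11.15, numpy 2.4.6, pandas 2.3.3, scipy 1.17.1 and matplotlib 3.10.9 were used.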

Additional observations from a re-analysis of the deposited data

Results flagged for a closer look

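Some loci differed between high light and untreated seedlings in one direction in poly(A)+ RNA and in the other in poly(A)- RNA. Of the 815 genes compared in both, 4 were higher in poly(A)+ and 31 lower there. The 6 with the largest gaps are given here, each with 1 library per side, and the difference between fractions was not tested. The next locus, OS03G0285850, lay just under the last of them. XLOC_078921 had the largest gap of these, its log2 difference being 5.58 larger in the poly(A)+ fraction than in the poly(A)- fraction, and XLOC_010040 had a gap of 4.35 in the same direction. The other 4 were lower in poly(A)+ and higher in poly(A)- RNA, with gaps of -4.49 for XLOC_027369, -4.41 for XLOC_042505, -3.90 for EPlOSAG00000017141 and -3.82 for OS04G0492450. Relative to the medians, XLOC_078921, XLOC_010040 and EPlOSAG00000017141 passed 2-fold in both fractions, while XLOC_027369, XLOC_042505 and OS04G0492450 did not pass in poly(A)- RNA, at 0.98, 0.63 and 0.37.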

How the results depend on the processing

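Every comparison is 1 library against 1, so the counts carry no replicate error, and depth limits mainly the nuclear loci, where the untreated library had 24.6 M reads. Leaving out a replicate could not be run, and No paired analysis was possible because each group is 1 library. Untreated leaves could not stand in for poly(A)+ RNA, since that column is in doubt. Demanding that the counting interval exclude a ratio of 1 changed no count, and dropping the filter on low values could not, since 2-fold on this scale already needs 1 FPKM. Of the 61 named results, rescaling to the listed reads left 4 short of 2-fold. Smaller pseudocounts and the median say nothing of their stability, as a smaller pseudocount widens every difference and the median was part of the choice.

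In poly(A)+ RNA, higher and lower genes numbered 349 and 876 with a pseudocount of 0.1, 131 and 295 with at least 5 FPKM, 18 and 74 at 4-fold, and 405 and 40 against the median of the other 4 stresses, whose median difference was 0.45, the opposite sign. Relative to the median 300 were higher. In poly(A)- RNA, the higher genes numbered 796 and 674 with pseudocounts of 0.1 and 0.5, 167 with at least 5 FPKM, 45 relative to the median, 225 rescaled to the listed reads, 42 at 4-fold and 88 against the other stresses. The lower genes numbered 2 with at least 5 FPKM, 13 relative to the median, 2 at 4-fold, 3 against the other stresses, 3 without genes that have a listed gene on the other strand and 56 against untreated leaves. The median difference there was 1.73 and 1.28 with pseudocounts of 0.1 and 0.5, 1.47 with at least 5 FPKM, 0.45 against the other stresses and 0.84 against leaves.

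In nuclear RNA, higher and lower genes numbered 32 and 88 with a pseudocount of 0.1, 19 and 49 with 0.5, 3 and 8 with at least 5 FPKM, 20 and 14 relative to the median, 1 and 1 at 4-fold, 5 and 3 against the other stresses, and 17 and 384 against leaves. The median difference was -0.31 with a pseudocount of 0.1, 0.10 against the other stresses, the opposite sign, and -0.90 against leaves. In small RNA they numbered 71 and 97 with a pseudocount of 0.1, 36 and 43 with 0.5, 29 and 7 relative to the median, 4 and 527 rescaled to the listed reads, 0 and 2 at 4-fold, and 98 and 7 against the other stresses. Rescaling divides by the listed reads, of which the 6 long EPlOSAG loci named above took 85.3% in high light and 68.8% in untreated small RNA. A value shared by 5 of them is summed 5 times there. The counts of 4 and 527 therefore rest largely on these loci and do not by themselves show a general fall. The higher genes of small RNA were 9 with at least 5 FPKM, 11 without genes that have a partner strand and 83 against leaves. The median difference was 0.61 against the other stresses and 0.27 against leaves, both of the opposite sign. Against another library the cause was not tested.

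Genes higher in at least 2 long fractions numbered 22 relative to the median and 5 at 4-fold, and those higher in all 3 numbered 1 relative to the median. Genes lower in at least 2 numbered 0 at 4-fold, and those lower in all 3 numbered 2 relative to the median and 0 at 4-fold.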
